A study of Mus musculus with 4 samples.

Results

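The 10 genes Plac8, Igfbp4, Tspoap1, Plaat3, Scin, Hs3st2, Itm2a, Fstl1, Taf7 and Sh3tc1 were set apart by how differently they responded to lipopolysaccharide (LPS) in mouse dendritic cells with and without liver X receptors (LXRs). They were chosen by the measured ratios of LPS over control: those ratios go opposite ways in the genotypes, or differ between them by far. Every ratio of LPS over control below, and every contrast computed from the same arrays, therefore describes the genes and tests nothing. All probe sets annotated to exactly 1 of the 10 symbols were taken, which gave 22 probe sets of 34945 with a single symbol and 10 genes of 18193.

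The cells were dendritic cells (DCs) grown from mouse bone marrow for 6 to 7 days with the growth factor GM-CSF at 20 ng/mL and enriched with beads for CD11c, an integrin that DCs carry. The 4 groups were LXR-DKO with LPS, LXR-DKO control, wild type (WT) with LPS and WT control. LXR-DKO cells came from mice that lack both LXRα and LXRβ, WT cells from mice with both receptors, and the strain label of all samples is C57/BL6. Cells of every group were kept for 24 h with GM-CSF at 10 ng/mL, and the LPS groups also received LPS at 100 ng/mL. Each group was measured on 1 array, which leaves every difference without replicates and without a p-value, and limits precision by the number of arrays. Age, number of mice and pooling of the cells are not given in the sources used here.

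LPS is a component of the outer membrane of Gram-negative bacteria that Toll-like receptor 4 senses, and it drives DC maturation, in which the cells raise costimulatory molecules, chemokine receptors and cytokines. LXRs are nuclear receptors activated by oxysterols. They control genes of cholesterol efflux and fatty acid synthesis, and in macrophages they restrain a set of inflammatory genes. The 10 genes belong to no common pathway. They encode secreted proteins (Igfbp4, Fstl1), membrane and scaffold proteins (Itm2a, Tspoap1, Sh3tc1), enzymes (Plaat3, Hs3st2), an actin-severing protein (Scin), a subunit of the basal transcription machinery (Taf7) and a small cysteine-rich protein of leukocytes (Plac8).

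Signals are the authors' MAS5 intensities on a linear scale. Values under 28.9, the median of all signals that are not array controls, were treated as below the floor, and a ratio with such a value is given as at least that size. A gene is described by its brightest probe set unless another is named. The 1 internal error is how far probe sets of a single gene scatter in their log2 ratio, as an SD pooled over genes with several probe sets. It was 0.42 for the LPS ratio in LXR-DKO, 0.29 for the LPS ratio in WT, 0.54 for LXR-DKO over WT with LPS, 0.45 without LPS, and 0.43 for the difference of the log2 LPS ratios, LXR-DKO minus WT. It covers differences within the arrays and not between cultures or mice.

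Several facts of the arrays touch all comparisons. Nr1h3, which encodes LXRα, had signals of 27.0 in LXR-DKO LPS, 40.4 in LXR-DKO control, 54.5 in WT LPS and 108.6 in WT control. Where its probe set lies relative to the deleted part is not known here, so if it lies elsewhere these signals check nothing about the deletion. The X-inactivation transcript Xist had signals of 2090.4 and 2750.0 in LXR-DKO LPS and control, against 22.7 and 30.8 in WT LPS and control. The Y-linked gene Eif2s3y was above the floor on every array, at 384.3 and 279.6 in LXR-DKO LPS and control, against 721.0 and 736.6 in WT LPS and control. Genotype and this difference cannot be told apart. Itgax, which encodes CD11c, lay between 3848.1 and 6093.0 on the 4 arrays, and the summed signal of 13 conventional DC markers was 28862.6 in LXR-DKO LPS, 25891.8 in LXR-DKO control, 14812.4 in WT LPS and 14655.7 in WT control. The DC gene Xcr1 stayed below the floor on all of them and Flt3 reached it only in LXR-DKO LPS. The 3′ to 5′ signal ratio of the Gapdh control probe sets, a sign of RNA integrity, lay between 0.76 and 0.84. That of b-Actin was 1.28 in LXR-DKO LPS, 1.14 in LXR-DKO control, 1.26 in WT LPS and 1.11 in WT control, so it was higher on both LPS arrays than on both controls. Its part in the LPS ratios below was not tested.

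The promoters are shown because genes that moved together can be compared by the letters in front of their start sites. The 250 bases upstream of annotated RefSeq starts (GRCm38.p6) were available for 8 of the 10 genes, in 11 windows, and Tspoap1 and Taf7 were not matched. The sequences below run 5′ to 3′ on the gene's own strand, with matches to 8 searched motifs in capitals. Plac8, Igfbp4, Plaat3, Scin and Hs3st2 were higher with LPS in LXR-DKO and lower with LPS in WT. Itm2a and Fstl1 were higher with LPS in both genotypes, and Sh3tc1 went the other way. The window of Hs3st2 is counted below but its sequence is not printed. Where a gene has more than 1 window, the 1 with the most matches is shown, and for Plaat3, whose windows overlap, the 1 farther upstream.
Plac8 (chr5:100572206-100572455, minus strand): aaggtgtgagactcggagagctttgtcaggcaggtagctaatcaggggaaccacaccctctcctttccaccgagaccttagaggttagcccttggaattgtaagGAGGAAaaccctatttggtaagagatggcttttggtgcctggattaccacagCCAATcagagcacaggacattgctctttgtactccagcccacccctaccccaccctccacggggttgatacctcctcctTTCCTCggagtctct
Igfbp4 (chr11:99040994-99041243, plus strand): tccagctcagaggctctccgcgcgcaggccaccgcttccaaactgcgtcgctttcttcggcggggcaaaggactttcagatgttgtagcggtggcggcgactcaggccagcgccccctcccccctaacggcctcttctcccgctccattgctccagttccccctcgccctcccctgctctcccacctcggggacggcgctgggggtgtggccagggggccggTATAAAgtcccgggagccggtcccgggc
Plaat3 (chr19:7557209-7557458, plus strand): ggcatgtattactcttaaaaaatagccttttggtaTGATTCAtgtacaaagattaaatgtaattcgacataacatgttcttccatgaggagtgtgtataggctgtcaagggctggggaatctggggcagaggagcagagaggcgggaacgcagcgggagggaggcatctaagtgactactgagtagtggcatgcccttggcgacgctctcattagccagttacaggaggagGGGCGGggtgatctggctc
Scin (chr12:40134229-40134478, minus strand): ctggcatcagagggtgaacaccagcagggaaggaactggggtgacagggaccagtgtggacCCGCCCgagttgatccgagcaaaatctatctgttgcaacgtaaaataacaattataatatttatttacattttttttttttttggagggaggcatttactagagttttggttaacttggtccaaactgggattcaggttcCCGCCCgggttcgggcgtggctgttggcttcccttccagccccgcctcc
Itm2a (chrX:107403361-107403610, minus strand): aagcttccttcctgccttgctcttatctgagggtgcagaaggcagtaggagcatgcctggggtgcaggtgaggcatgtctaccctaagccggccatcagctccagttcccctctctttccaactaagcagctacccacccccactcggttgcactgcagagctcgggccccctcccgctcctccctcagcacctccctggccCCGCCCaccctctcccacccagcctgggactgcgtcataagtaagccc
Fstl1 (chr16:37776805-37777054, plus strand): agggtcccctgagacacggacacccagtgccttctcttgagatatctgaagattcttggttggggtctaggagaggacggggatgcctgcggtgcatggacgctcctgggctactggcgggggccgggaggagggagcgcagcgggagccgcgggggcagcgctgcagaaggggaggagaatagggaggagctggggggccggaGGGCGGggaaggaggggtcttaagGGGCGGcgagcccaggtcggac
Sh3tc1 (chr5:35739988-35740237, minus strand): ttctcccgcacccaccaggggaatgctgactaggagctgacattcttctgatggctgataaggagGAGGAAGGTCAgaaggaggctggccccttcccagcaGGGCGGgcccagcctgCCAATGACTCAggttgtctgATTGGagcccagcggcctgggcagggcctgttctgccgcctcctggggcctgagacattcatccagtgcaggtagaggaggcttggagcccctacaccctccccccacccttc
The motifs were searched on both strands as the TATA box TATAAA, the CCAAT box CCAAT, the GC box GGGCGG, the AP-1 site TGANTCA, the NF-kappaB site GGGNNTTTCC, the interferon response element TTTCNNTTTC, the nuclear receptor half-site AGGTCA and the PU.1 core GAGGAA. The GC box stood in 7 of the 11 windows, belonging to 6 genes, and in 32.7% of all 32851 windows of this length. The CCAAT box stood in 3 windows (33.8% of all), the PU.1 core in 3 (23.3%), the AP-1 site in 3, of which 2 are the overlapping Plaat3 windows (6.75%), and the TATA box in 1, that of Igfbp4 (12.4%). The nuclear receptor half-site stood in 1 window, that of Sh3tc1 (14.0%), where its first base is the last base of a PU.1 core and where a CCAAT box and an AP-1 site also share a base. The NF-kappaB and interferon letters were in none of the 11 windows, against 1.41% and 2.98% of all windows. The Hs3st2 window held a GC box and a PU.1 core. No motif was shared by all of Plac8, Igfbp4, Plaat3, Scin and Hs3st2. A match describes these letters only.

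Plac8, Igfbp4, Tspoap1, Plaat3, Scin and Hs3st2 went up at least 2-fold with LPS in LXR-DKO and down at least 2-fold with LPS in WT. Among 10764 genes measured in both genotypes, 0.139% met this description, 15 genes in all. Scin and Hs3st2 lay close to the 2-fold limit, and Scin crossed it with each of 3 other scalings, with log2 LPS ratios in WT of -0.90, -0.87 and -0.98. Hs3st2 crossed it with quantile normalization, with a log2 LPS ratio in LXR-DKO of 0.98. For 5 of the 6, all but Hs3st2, the signal was highest in LXR-DKO LPS and lowest in WT LPS, with both controls between. In bulk RNA such as this, fewer cells of a type and less RNA per cell cannot be told apart.

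**Figure D1:**
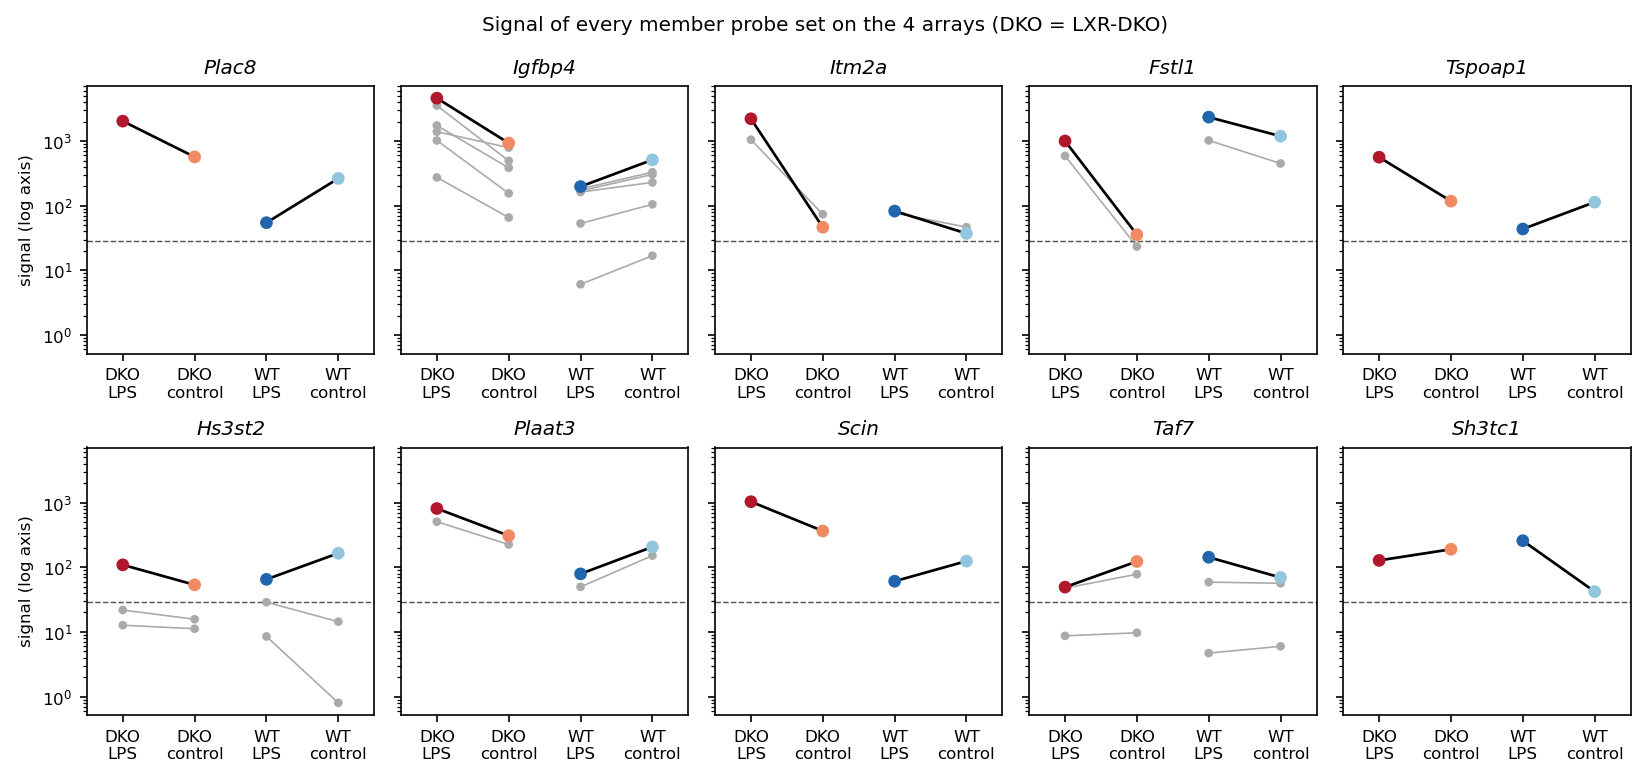
Signal of each probe set (log axis) on the 4 arrays for the 10 genes. Black lines and coloured points mark the brightest probe set, grey the others, the dashed line the floor of 28.9, and lines join the LPS and control arrays of a genotype. For Plac8 the points run to 2034.4 in LXR-DKO LPS and down to 54.7 in WT LPS.

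Plac8 encodes a small cysteine-rich protein found in myeloid and lymphoid cells. Its only probe set (1451335_at) had a signal of 2034.4 in LXR-DKO LPS, 568.9 in LXR-DKO control, 54.7 in WT LPS and 264.4 in WT control. The genotypes thus moved apart from controls that already differed. With LPS the gene was 3.58-fold higher in LXR-DKO and 4.83-fold lower in WT. LXR-DKO over WT was 37.2-fold with LPS and 2.15-fold without.

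Igfbp4 encodes a secreted protein that binds insulin-like growth factors and limits their access to the receptor. Its brightest probe set (1437405_a_at) had a signal of 4610.6 in LXR-DKO LPS, 931.1 in LXR-DKO control, 198.0 in WT LPS and 513.0 in WT control. LXR-DKO LPS stood far above the other arrays, and WT LPS was the lowest. The gene was 4.95-fold higher with LPS in LXR-DKO and 2.59-fold lower in WT, and 23.3-fold higher in LXR-DKO than in WT with LPS. The other 4 probe sets above the floor on all arrays went the same ways, by 1.76-fold to 7.16-fold in LXR-DKO and by 1.41-fold to 1.98-fold in WT. The loss in WT therefore reached 2-fold only on the brightest probe set. A sixth had signals of 274.3 in LXR-DKO LPS and 65.8 in LXR-DKO control, and lay below the floor on both WT arrays, at 6.1 with LPS and 16.9 without. All 6 carry a suffix that marks shared or alternative targets, so several may read the same transcript.

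Tspoap1 encodes a scaffold protein that binds the mitochondrial translocator protein and belongs to the RIM-binding family. Its probe set (1455771_at) had a signal of 563.3 in LXR-DKO LPS, 117.8 in LXR-DKO control, 43.7 in WT LPS and 113.7 in WT control. The controls differed by a log2 ratio of 0.05, less than the spread between probe sets, and the LPS arrays lay on either side of them. With LPS the gene was 4.78-fold higher in LXR-DKO and 2.60-fold lower in WT.

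Plaat3 encodes a phospholipase and acyltransferase best known for releasing fatty acids from phospholipids in fat cells. Its brightest probe set (1451611_at) had a signal of 809.5 in LXR-DKO LPS, 307.9 in LXR-DKO control, 79.0 in WT LPS and 206.4 in WT control, and the second 505.9, 224.8, 49.7 and 151.3 in the same order of groups. The ratios were nearly mirror images, 2.63-fold higher with LPS in LXR-DKO and 2.61-fold lower in WT. Both probe sets gave a difference of the log2 LPS ratios of 2.78.

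Scin encodes scinderin, a calcium-dependent protein that severs and caps actin filaments. Its probe set (1450276_a_at) had a signal of 1032.2 in LXR-DKO LPS, 363.8 in LXR-DKO control, 60.8 in WT LPS and 124.5 in WT control. LXR-DKO was above WT in both conditions, 17.0-fold with LPS and 2.92-fold without. With LPS the gene was 2.84-fold higher in LXR-DKO and 2.05-fold lower in WT.

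Hs3st2 encodes a sulfotransferase that adds the rare sulfate at the third carbon of glucosamine in heparan sulfate. Its brightest probe set (1440814_x_at) had a signal of 108.9 in LXR-DKO LPS, 53.5 in LXR-DKO control, 65.0 in WT LPS and 164.8 in WT control. Unlike the other genes of this pattern, its highest signal was in WT control and its lowest in LXR-DKO control. LXR-DKO against WT gave a log2 ratio of 0.74 with LPS and -1.62 without. The other 2 probe sets stayed below the floor on every array, with signals up to 28.8, so the pattern rests on 1 probe set whose suffix marks probes that may bind other transcripts.

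Itm2a and Fstl1 went up with LPS in both genotypes, by far more in LXR-DKO. Itm2a encodes a small membrane protein known from cartilage and activated T cells. Its brightest probe set (1423608_at) had a signal of 2213.6 in LXR-DKO LPS, 46.5 in LXR-DKO control, 82.8 in WT LPS and 37.3 in WT control. A single array stood out, and the other 3 lay within a narrow band near the floor. The gene was 47.6-fold higher with LPS in LXR-DKO and 2.22-fold higher in WT. The second probe set had signals of 1051.1, 73.8, 77.2 and 46.7 in the same order of groups, 14.2-fold and 1.65-fold higher with LPS. Itm2a lies on the X chromosome. Its controls differed between the genotypes by a log2 ratio of 0.32 on the brightest probe set, less than the spread between probe sets. On the second probe set they differed by 0.66, more than that spread.

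Fstl1 encodes a secreted glycoprotein of the follistatin and SPARC family that takes part in signalling by bone morphogenetic proteins. Its brightest probe set (1416221_at) had a signal of 1003.6 in LXR-DKO LPS, 35.7 in LXR-DKO control, 2345.3 in WT LPS and 1189.7 in WT control. Here LXR-DKO control stood alone, far below the other arrays. With LPS the gene was 28.1-fold higher in LXR-DKO and 1.97-fold higher in WT. Without LPS it was 33.3-fold lower in LXR-DKO than in WT, the lowest log2 ratio of that comparison, at -5.06, among the 9623 genes that reached the floor on all 4 arrays. With LPS that ratio was -1.22. The second probe set had a signal of 589.9 in LXR-DKO LPS, 23.4 in LXR-DKO control, 1022.6 in WT LPS and 450.6 in WT control, at least 20.4-fold higher with LPS in LXR-DKO and 2.27-fold higher in WT. Fstl1 is thus the gene of the 10 whose large response in LXR-DKO began from a low control and ended below the WT value.

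Taf7 and Sh3tc1 went the opposite way, lower with LPS in LXR-DKO and higher in WT. Taf7 encodes a subunit of TFIID, the complex that places RNA polymerase II at promoters. Its brightest probe set (1423170_at) had a signal of 49.3 in LXR-DKO LPS, 122.8 in LXR-DKO control, 142.8 in WT LPS and 69.4 in WT control. WT LPS was the highest and LXR-DKO LPS the lowest, 2.49-fold lower with LPS in LXR-DKO and 2.06-fold higher in WT. The second probe set gave 47.6, 78.0, 58.9 and 56.5 in the same order of groups. There the log2 LPS ratio was -0.71 in LXR-DKO and 0.06 in WT, the second within the spread between probe sets, so the opposed direction is seen on 1 of the 2 measured probe sets. The third was below the floor on all arrays, with signals up to 9.7.

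Sh3tc1 encodes a protein with SH3 and tetratricopeptide repeat domains whose role is little described. Its probe set (1427619_a_at) had a signal of 127.6 in LXR-DKO LPS, 189.6 in LXR-DKO control, 257.4 in WT LPS and 42.0 in WT control. WT control was the lowest and WT LPS the highest. The gene was 6.13-fold higher with LPS in WT and 1.49-fold lower in LXR-DKO. LXR-DKO against WT gave a log2 ratio of -1.01 with LPS and 2.17 without. The sign of the genotype difference thus turned with LPS in Hs3st2, Taf7 and Sh3tc1, 3 of the 10 genes.

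**Figure D2:**
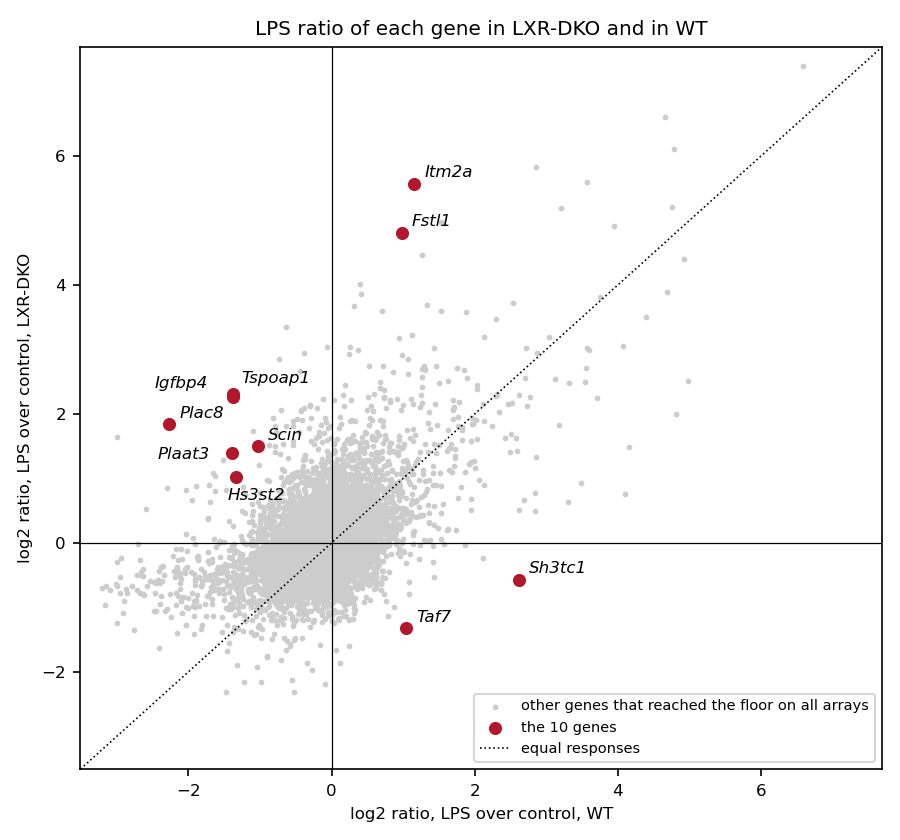
Log2 ratio of LPS over control in LXR-DKO (vertical axis) and in WT (horizontal axis) for 9623 genes that reached the floor on all 4 arrays; red points are the 10 genes, grey points the others, and the dotted line marks equal responses. Of the red points, 6 lie in the upper left, Itm2a and Fstl1 lie well above the dotted line at upper right, and Taf7 and Sh3tc1 lie below the horizontal zero line.

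Counted over the 10 genes, 8 went up at least 2-fold with LPS in LXR-DKO, where 6.23% of 11793 measured genes did, and 1, Taf7, went down at least 2-fold (1.82%). In WT, 3 went up at least 2-fold with LPS (2.93% of 11449 genes), namely Itm2a, Taf7 and Sh3tc1, and 6 were at least 2-fold lower (4.79%). The difference of the log2 LPS ratios was at least 1 in 8 genes (7.61% of 12478 genes) and at most -1 in 2 (2.07%). The direction was up in LXR-DKO and down in WT, at any size, in 6 genes, against 21.0% of genes, and the reverse in 2, against 14.1%. The reverse at 2-fold in each genotype held for 1 of the 10, Taf7, and for 0.0186% of genes. These counts follow from the choice of the genes and nothing is read from them.

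The genes do not form the whole of the extreme end. By the difference of the log2 LPS ratios among 9623 genes, Itm2a ranked 2 from the top at 4.42, Plac8 3 at 4.11, Fstl1 5 at 3.83, Igfbp4 6 at 3.68 and Tspoap1 7 at 3.64. Plaat3 followed at rank 25 with 2.78, Scin at rank 40 with 2.54 and Hs3st2 at rank 57 with 2.37. Fabp4, a fatty acid carrier, held rank 1 at 4.65 and the chemokine gene Ccl2 rank 4 at 3.99. From the other end, Sh3tc1 ranked 2 at -3.19 and Taf7 8 at -2.36, behind Slamf6, a lymphocyte receptor gene, at -3.35. Fabp4, Ccl2 and Slamf6 were named after their values were seen. The median difference was 3.21 over the 10 genes and 0.083 over all 12478.

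Between the genotypes at equal treatment, 6 of the 10 genes lay at least 2-fold above WT in LXR-DKO with LPS, against 17.8% of 12014 genes, and 3 were at least 2-fold lower (8.76%), namely Fstl1, Taf7 and Sh3tc1. Without LPS, 3 lay at least 2-fold above WT in LXR-DKO (12.7% of 11728 genes), namely Plac8, Scin and Sh3tc1, and 2 were at least 2-fold lower (9.28%), namely Fstl1 and Hs3st2. The median genotype log2 ratio, LXR-DKO over WT, was over the 10 genes 3.52 with LPS and 0.70 without, beside 0.15 and 0.045 over all measured genes. On the brightest probe set, the log2 ratio without LPS was within the spread between probe sets of 0.45 for Itm2a and Tspoap1. The second Itm2a probe set gave 0.66, beyond it.

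**Figure D3:**
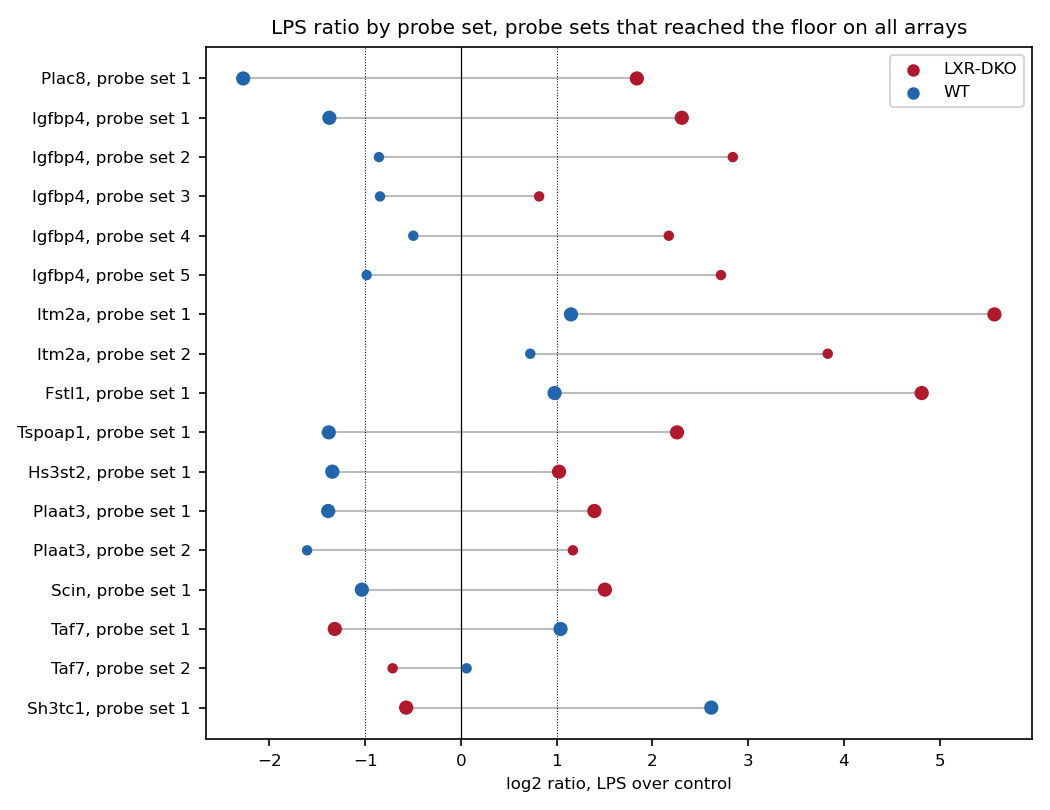
Log2 ratio of LPS over control in LXR-DKO (red) and in WT (blue) for the 17 probe sets that reached the floor on all 4 arrays, with larger points for the brightest probe set of a gene and dotted lines at 2-fold. The red point lies right of the blue in every probe set except those of Taf7 and Sh3tc1.

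Of the 22 probe sets, 17 reached the floor on all arrays, 2 on some and 3 on none. Of the 10 genes, 4 had a single probe set. Where a second was measured, its direction was the same as the first for Igfbp4, Itm2a, Fstl1 and Plaat3. The sizes differed most for Igfbp4, whose log2 LPS ratios in LXR-DKO ran between 0.82 and 2.84, and for Itm2a, at 5.57 and 3.83. Probe sets of a gene share the arrays and the RNA and are not replicates.

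Relatives of the 10 genes, from lists of their families and pathways, were counted at the same 2-fold limit. Of 14 measured TFIID subunits and related genes, Taf7 was the 1 at least 2-fold lower with LPS in LXR-DKO and the 1 at least 2-fold higher in WT, and the median log2 LPS ratio was 0.02 in LXR-DKO and 0.03 in WT. Taf9b, another subunit, had signals of 194.3 in LXR-DKO LPS, 189.7 in LXR-DKO control, 86.7 in WT LPS and 151.6 in WT control. Its log2 LPS ratio was 0.03 in LXR-DKO and -0.81 in WT, under the 2-fold limit in both. Among 13 gelsolin-family and capping genes, 2 went up at least 2-fold with LPS in LXR-DKO and 0 went down, and 0 went up and 1 went down in WT. These were Scin, and in LXR-DKO also Dstn, an actin-depolymerising factor, with signals of 2521.1 in LXR-DKO LPS and 1247.3 in LXR-DKO control, against 4453.2 in WT LPS and 3636.0 in WT control.

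Of 9 measured PLAAT and phospholipase A2 genes, 2 went up at least 2-fold with LPS in LXR-DKO and 2 went down at least 2-fold in WT. Plaat3 was in both counts. Pla2g7, a secreted enzyme that degrades platelet-activating factor, was the other gene higher in LXR-DKO, at 3072.8 in LXR-DKO LPS, 1387.6 in LXR-DKO control, 8205.9 in WT LPS and 5320.5 in WT control. Pla2g15, a lysosomal phospholipase, was the other gene lower in WT, at 464.3 in LXR-DKO LPS, 652.7 in LXR-DKO control, 415.1 in WT LPS and 889.5 in WT control. Among heparan sulfate genes, 2 of 14 went up at least 2-fold with LPS in LXR-DKO and 1 of 15 went down at least 2-fold in WT, and Hs3st2 was in both counts. The other was Hs3st1, a sulfotransferase of the same family, at 67.9 in LXR-DKO LPS and below the floor on the other arrays.

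The insulin-like growth factor and follistatin groups held further genes that were higher with LPS in LXR-DKO beside Igfbp4 and Fstl1. Of 10 measured insulin-like growth factor, receptor and binding protein genes, 3 went up at least 2-fold with LPS in LXR-DKO, namely Igfbp4, Igfbp5 and Igfbp7. Of 8 measured in WT, 2 were higher, Igfbp7 and the insulin signalling adaptor gene Irs2, and 1 lower, Igfbp4. Igfbp5, another binding protein, had a signal of 163.2 in LXR-DKO LPS and lay between 3.1 and 10.5 on the other arrays. Igfbp7, a related secreted protein, had signals of 307.1 in LXR-DKO LPS, 27.5 in LXR-DKO control, 420.5 in WT LPS and 132.6 in WT control. Its order of groups was that of Fstl1 except that WT control was lower than LXR-DKO LPS.

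Of 19 measured follistatin, SPARC, activin, BMP and TGF beta genes, 5 went up at least 2-fold with LPS in LXR-DKO and 0 went down, and of 16 in WT 2 went up and 0 went down. Fst, which encodes follistatin, an activin antagonist, had signals of 347.2 in LXR-DKO LPS, 19.5 in LXR-DKO control, 837.5 in WT LPS and 31.1 in WT control, and so went up in both genotypes. Sparc, a matrix glycoprotein, had 90.1 in LXR-DKO LPS, 9.3 in LXR-DKO control, 101.8 in WT LPS and 159.5 in WT control. Tgfb2, a TGF beta ligand, reached the floor only in LXR-DKO LPS, at 112.5. Of 8 measured relatives of Itm2a, Tspoap1, Sh3tc1 and Plac8, these 4 included, 3 went up at least 2-fold with LPS in LXR-DKO and 2 went up and 2 went down in WT, and every 1 of them was among the 4. Itm2b, of the same family as Itm2a, had 6862.8 in LXR-DKO LPS, 7281.5 in LXR-DKO control, 10126.2 in WT LPS and 9056.4 in WT control.

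The genes with the nearest pattern over the 4 arrays were found by the distance between log2 signals, each centred on its mean, among 12468 other genes. Cpa3, a mast cell protease gene, was among the nearest 2 for Scin at 0.32, for Igfbp4 at 0.62 and for Plac8 at 0.89, with signals of 706.2 in LXR-DKO LPS, 259.0 in LXR-DKO control, 43.8 in WT LPS and 112.7 in WT control. Mcpt8, a basophil protease gene, was next for Scin at 0.35, and Cd72, a B cell and myeloid coreceptor gene, was nearest to Plac8 at 0.79. Serpinb6b, a protease inhibitor gene, was nearest to Igfbp4 at 0.60 and to Tspoap1 at 0.65, and Cblb, a ubiquitin ligase gene, was next for Tspoap1 at 0.88. For Plaat3 they were Igkv8-30, an immunoglobulin light chain segment, and Rab27a, a gene of secretory vesicles, both at 0.42.

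Il12b, which encodes a subunit of interleukin-12 and interleukin-23, was nearest to Itm2a at 0.62, with signals of 1016.2 in LXR-DKO LPS, 34.9 in LXR-DKO control, 61.0 in WT LPS and 21.7 in WT control. Hamp, the iron-regulating hormone hepcidin, followed at 1.17. Fstl1 lay farthest from its nearest 2 genes, Procr, the endothelial protein C receptor gene, at 1.28 and the chemokine gene Ccl3 at 1.37. Both were highest in WT LPS and lowest in LXR-DKO control, as Fstl1 was. The distance also grows with the size of the differences between arrays, which were large in Fstl1. Hs3st2 was near to Slc25a47, a mitochondrial carrier gene, at 0.25 and to Phgdh, the first enzyme of serine synthesis, at 0.28. Taf7 was nearest to the unnamed transcripts 5830432E09Rik and 1810064F22Rik, both at 0.38. Sh3tc1 was nearest to Car4, a carbonic anhydrase gene, at 0.53, and to Flrt3, an adhesion gene, at 0.81.

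**Figure D4:**
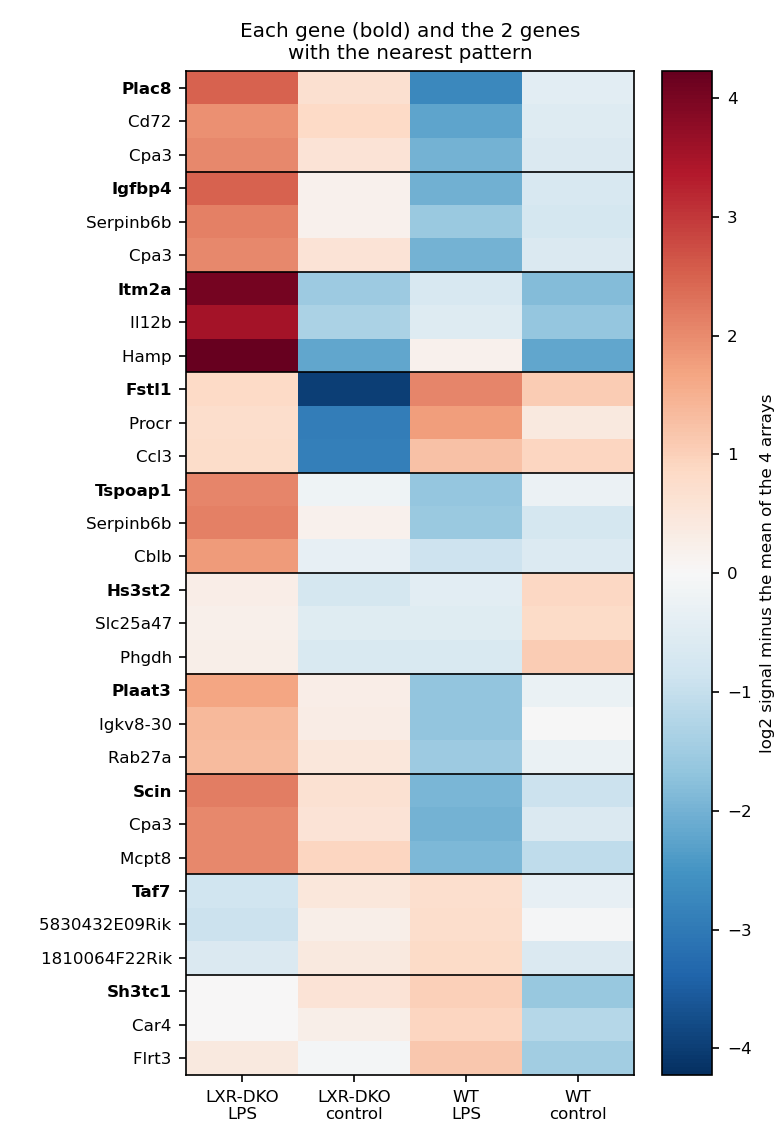
Log2 signal minus the mean of the 4 arrays, in colour, for each of the 10 genes (bold) and the 2 genes with the nearest pattern. Fstl1 with Procr and Ccl3 has its lowest value in LXR-DKO control, and Itm2a with Il12b and Hamp its highest in LXR-DKO LPS.

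Among the 10 genes themselves, the shortest distances were 0.62 between Tspoap1 and Plaat3, 0.63 between Igfbp4 and Scin and 0.85 between Plac8 and Igfbp4. The distance between Taf7 and Sh3tc1 was 1.55. Hs3st2 was 2.36 from its nearest other, Taf7, Itm2a was 2.92 from Igfbp4, and Fstl1 was 4.14 from Hs3st2. Distances over 4 arrays are a description, and the genes compared share those arrays.

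Markers of cell types that the cultures could hold moved beside these genes. The summed signal of 10 mast cell, basophil and eosinophil markers was 3505.9 in LXR-DKO LPS, 1979.0 in LXR-DKO control, 814.5 in WT LPS and 651.6 in WT control, of which 10, 10, 5 and 6 reached the floor. Within that list Cpa3 and Mcpt8 followed Scin, whereas Hdc, the histamine-forming enzyme, was higher with LPS in both genotypes, at 789.9 and 58.5 in LXR-DKO LPS and control and at 329.6 and 3.0 in WT LPS and control. Hdc was left out of the sum after the values were seen. The sum was then 2716.0 in LXR-DKO LPS, 1920.5 in LXR-DKO control, 484.9 in WT LPS and 648.6 in WT control. Without Hdc the sum was thus higher with LPS in LXR-DKO and lower in WT, whereas with Hdc it was higher in both. Its direction in WT therefore depends on that choice, and no likeness to the 10 genes is read from it. Siglecf, kept in the sum, fell in both genotypes, by log2 ratios of -0.74 in LXR-DKO and -0.83 in WT. Of all 10 markers, 5 rose 2-fold or more in LXR-DKO. Of 7 measured in WT, 1 rose and 1 fell that far. Bst2 was higher with LPS in both genotypes and was likewise left out of the plasmacytoid DC sum after the values were seen. With Bst2 that sum was 3152.9 in LXR-DKO LPS, 1532.2 in LXR-DKO control, 4017.9 in WT LPS and 1126.2 in WT control. Without Bst2 it was 1705.1 in LXR-DKO LPS, 1062.5 in LXR-DKO control, 508 in WT LPS and 536.5 in WT control. The WT values were then little apart. The median log2 LPS ratio of the measured plasmacytoid DC markers in WT was 0.18. The sum of 14 DC maturation markers was 56084.5 in LXR-DKO LPS, 27206.7 in LXR-DKO control, 14255.4 in WT LPS and 9084.2 in WT control, of which 13 reached the floor on each array. Of 13 measured, 10 went up at least 2-fold with LPS in LXR-DKO and 3 in WT. The difference of their log2 LPS ratios was at least 1 in 5 and at most -1 in 1, Ccl17. Ccr7, a chemokine receptor gene of that list, had signals of 6482.5, 1189.3, 229.8 and 201.3 in the same order of groups. Ccl17, a chemokine gene, had 8268.3, 7194.6, 2851.2 and 935.0 in that order. Cd40 was higher with LPS by a log2 ratio of 2.28 in LXR-DKO and 2.30 in WT. The part of the markers in the results above was not tested.

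The sum of 9 B cell markers was 2281.1 in LXR-DKO LPS, 757.5 in LXR-DKO control, 426.4 in WT LPS and 394.1 in WT control, of which 9, 8, 3 and 4 reached the floor. Ms4a1, which encodes CD20, had signals of 851.0 in LXR-DKO LPS and 208.4 in LXR-DKO control and lay below the floor in WT. The sum of 12 stromal markers was 3963.2 in LXR-DKO LPS, 3237.3 in LXR-DKO control, 1690.2 in WT LPS and 1243.9 in WT control, of which 11, 5, 11 and 9 reached the floor. Col1a2, a collagen gene, ran in part like Fstl1, with 109.9 in LXR-DKO LPS, 38.6 in LXR-DKO control, 181.8 in WT LPS and 314.6 in WT control. The sums rest on their brightest genes, and the median log2 LPS ratio of the measured markers can differ from them in sign. In WT the summed signal was higher with LPS for all 9 lists, by 1.01-fold to 3.57-fold, whereas that median was -0.54 for mast cells, basophils and eosinophils, -0.52 for macrophages and monocytes, -0.29 for conventional DCs, -0.08 for neutrophils and -0.08 for T and NK cells. In LXR-DKO the median was 0.99 for the mast cell list, 1.36 for DC maturation, 1.19 for B cells, 1.51 for stromal cells and -0.67 for macrophages and monocytes. No marker had a signal of 0, and Cd3e, Cd4, Nkg7, Ncr1, Xcr1, Il4i1 and Ccr9 were below the floor on all arrays.

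**Figure D5:**
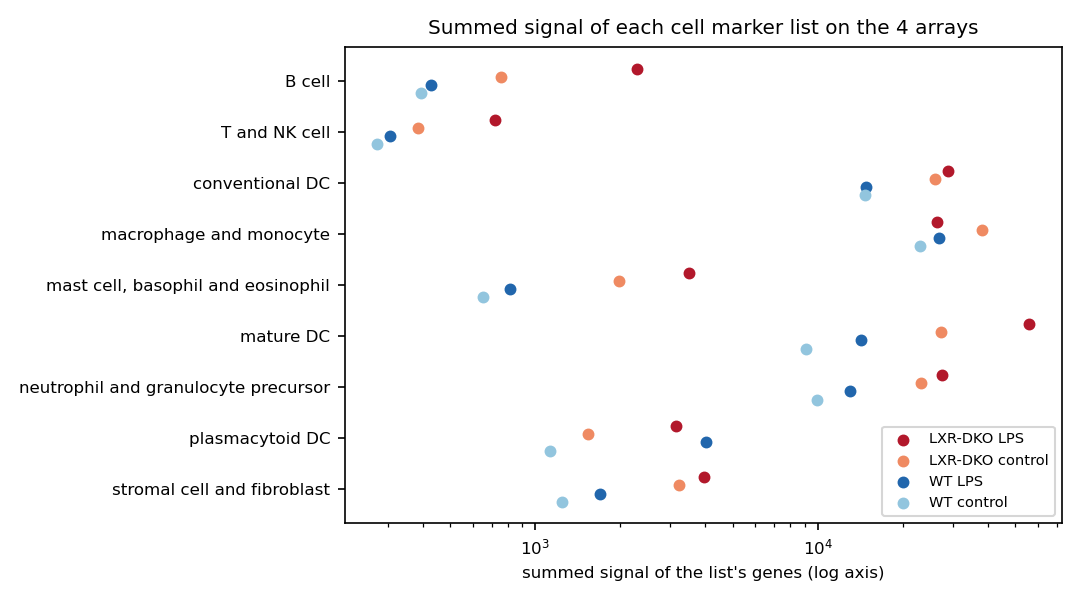
Summed signal (log axis) of each of 9 cell marker lists on the 4 arrays, 1 point per array. The LXR-DKO LPS point lies farthest right in every list except macrophages and monocytes and plasmacytoid DCs. In the same lists both LXR-DKO points lie right of both WT points. Single bright genes can set this order: Fn1 alone gave 2806.1 of the 3237.3 summed for stromal cells in LXR-DKO control. Without LPS the median log2 ratio of LXR-DKO to WT was -0.67 for stromal cells and -0.23 for T and NK cells. That median was positive for the other lists with this order. Whether the order is particular to a cell type was not tested.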

How the data were processed

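RNA from 4 cultures was hybridised to 1 Affymetrix mouse array each as amplified, biotinylated cRNA, per the labels. The authors deposited 1 linear intensity value per probe set and array, made with MAS5 per the submitters' processing notes. The version is not given in the sources used here. The authors' scaling left the same trimmed mean, 200.0, on every array, and between 47.8% and 52.6% of probe sets reached the floor. Detection calls were not used here.

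Of 45101 probe sets, 64 array controls were left out. The platform annotation gave 34945 others 1 symbol, 932 several and 9160 none. Only the first were named. The brightest probe set by mean signal stood for a gene. Signals under the floor were set to it, log2 ratios were taken, and a log2 ratio of 1 counted as 2-fold. A gene was measured in a comparison if any of the arrays in it was at the floor or above. With 1 array per group nothing was tested across arrays, and it is not stated whether the cultures came from separate mice. Genes named were the 10 genes, the 2 nearest patterns of each, up to 3 relatives per family list and bright or defining markers. Fabp4, Ccl2, Slamf6, the further opposed genes of the closing section and some markers were named after their values were seen. The genes and all lists were chosen with earlier results of these data known.

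Scripts were checked on simulated data and run in Python 3.11.15 with pandas 2.3.3 and numpy 2.4.6. Alternatives were 3 scalings, 2 other floors, no floor with a pseudocount of 16, the median over probe sets, and probe sets without a suffix.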

Additional observations from a re-analysis of the deposited data

Results flagged for a closer look

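Responses to LPS that went opposite ways in the genotypes, with both log2 ratios beyond 1 SD between probe sets, were marked for a closer look. The difference between the genotypes was not tested, and the 10 genes were chosen for it. The difference of the log2 LPS ratios, LXR-DKO minus WT, was 4.11 for Plac8, 3.68 for Igfbp4, 3.64 for Tspoap1, 2.78 for Plaat3, 2.54 for Scin and 2.37 for Hs3st2. It was -2.36 for Taf7 and -3.19 for Sh3tc1. Itm2a and Fstl1 went up in both genotypes and are not marked.

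Among the genes of nearest pattern, which follow from the same values, the difference was 2.81 for Cpa3, 2.75 for Serpinb6b, 2.73 for Cd72, 2.68 for Igkv8-30, 2.61 for Phgdh, 2.44 for Cblb, 2.10 for Rab27a, 2.08 for Slc25a47 and 1.92 for Mcpt8. It was -1.93 for 5830432E09Rik and -2.44 for 1810064F22Rik. Among relatives it was 2.29 for Sparc, a lower limit because LXR-DKO control was below the floor. A lower limit also holds for Slc25a47 and Mcpt8, and for the size of the negative difference of 1810064F22Rik.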

How the results depend on the processing

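Over 8 alternatives, the 2 LPS ratios and their difference were recomputed for each of the 10 genes. Of 219 values, 0 reversed, 195 moved by less than the spread between probe sets and 24 by more, 14 of them with a floor at the 75th percentile (177.4), 6 with the median over probe sets and 4 with no floor.

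With the higher floor, at the 75th percentile, 8 of the 10 genes kept a value. The genes at least 2-fold lower with LPS in LXR-DKO and those at least 2-fold higher in WT both numbered 0, against 1 and 3. Those at least 2-fold lower in WT numbered 1, those of opposite sign 4, those 2-fold in opposite directions 1, and those lower in LXR-DKO 1 with LPS and 1 without. With no floor, 1 was higher with LPS in WT and 4 were 2-fold in opposite directions, against 7, a count added after seeing the data. That count was 6 with scaling to the 75th percentile, 5 with quantile normalization, 6 with centring and 5 with the median over probe sets. Calls lost there were those of Scin with all 3 scalings, of Hs3st2 with quantile normalization, and of Igfbp4 (-0.86 in WT) and Taf7 (0.55 in WT) with the median over probe sets. With probe sets without a suffix, 6 genes had a value, since Igfbp4, Scin and Sh3tc1 have none and that of Hs3st2 lies below the floor. Then 5 were higher with LPS in LXR-DKO, 3 lower in WT, 6 at least 2-fold apart, 4 of opposite sign, 4 at 2-fold in opposite directions, and without LPS 1 was higher and 1 lower in LXR-DKO. The higher floor and the missing suffixed probe sets leave fewer genes, which sets part of these counts.

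The count over all genes of 2-fold opposed responses was 17, and became 155 when the floor was lowered to the 25th percentile (8.8) and 2 when it was raised to the 75th. Over all genes, 735 were higher and 215 lower with LPS in LXR-DKO, against 1541 and 560 with the lower floor and 324 and 114 with the higher. In WT 336 were higher and 548 lower, against 833 and 1235, and 188 and 150. The difference was at least 1 for 949 and at most -1 for 258, against 2223 and 924, and 281 and 148. LXR-DKO over WT was higher with LPS for 2141 and without for 1487, against 947 and 744 with the higher floor. It was lower with LPS for 1053, against 1724 with scaling to the 75th percentile of signal, 1578 with the lower floor and 685 with the higher. Without LPS it was lower for 1088, against 1863 and 611 with these floors.

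Scaling to the 75th percentile of signal moved the median log2 ratio of all genes in LXR-DKO over WT to -0.11 with LPS, against 0.15, and to -0.12 without, against 0.045. In WT the median LPS ratio was 0.070, against -0.054. The share of higher among 2-fold calls was then 47.1% with LPS, against 67.0%, 44.1% without LPS, against 57.7%, and 50.6% for LPS in WT, against 38.0%. With quantile normalization the share for the difference was 68.6%, against 78.6%. The difference of the log2 LPS ratios ranged over these settings from 2.41 to 4.11 for Plac8, 1.52 to 4.05 for Fstl1, 1.67 to 3.64 for Tspoap1, 1.61 to 2.78 for Plaat3, 1.505 to 2.54 for Scin, 2.004 to 2.37 for Hs3st2, 3.18 to 3.68 for Igfbp4 and 3.64 to 4.49 for Itm2a, and from -2.51 to -1.57 for Taf7. It ranged from -3.29 to -0.63 for Sh3tc1, which fell below 2-fold with the higher floor, where its log2 LPS ratio in WT was 0.54. Dim genes such as Hs3st2 and Taf7 lie near the floor, and the small number of arrays limits all values. The cause of these changes was not tested beyond what each setting removes.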

Other observations

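Beside the genes described, 10 more had LPS ratios at least 2-fold in opposite directions in the genotypes, 9 of them higher in LXR-DKO. They were named after their values were seen. Fabp4, a fatty acid carrier of macrophages and fat cells, had signals of 147.2 in LXR-DKO LPS, 46.9 in LXR-DKO control, 88.4 in WT LPS and 707.9 in WT control. Like Hs3st2 it was highest in WT control and lowest in LXR-DKO control. Tgfbr3, a coreceptor for TGF beta, had 136.3, 55.9, 90.2 and 257.3 in the same order of groups, with the same highest and lowest arrays. Tnfsf4, which encodes the costimulatory ligand of OX40, had 233.6, 101.0, 61.5 and 124.0, highest in LXR-DKO LPS and lowest in WT LPS, as Plac8 was. Cpa3, Cd72, Igkv8-30, Ttc39a, Plscr4 and Rtel1 complete the 9, the last 2 with an array below the floor. In the reverse direction, 1810064F22Rik joined Taf7.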
